A study of Mus musculus with 47 samples.

Results

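Mouse iPS cells that no longer received doxycycline were compared with reprogramming clones that still received it. Messenger RNA was sequenced from clones grown out of secondary mouse embryonic fibroblasts, in which the drug switches on reprogramming, and from feeder cells. The 8 libraries chosen were the 4 SC iPS libraries (clones SC1 to SC4, 21 days with doxycycline and then 6 without) and the 4 SI d27 libraries (clones SI1 to SI4, 27 days with it), of 47 libraries in the series. The choice rests on the column names of the deposited table and used no measured value. SC and SI are the study's abbreviations for clones competent and incompetent to stabilize, that is, to keep their state without the drug. Other libraries were used beside them: SC d27 (the SC clones after 27 days with the drug), SI d21 and SI d23 (the SI clones after 21 days with it, and after 2 further days without), and 3 feeder libraries of mouse embryonic fibroblasts that had no drug. All clones share the secondary fibroblast system with inducible factors. The sources used here do not give the strain, the construct or the sex of the clones. Each clone is 1 line from 1 founding event, so a p-value here speaks of the scatter among these clones and of nothing wider. SC iPS and SI d27 differ in clone class, in the drug and in days since the drug was removed, and the parts of these in a difference cannot be told apart.

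In the secondary system the factors Oct4 (Pou5f1), Sox2, Klf4 and c-Myc are driven from inducible copies while the drug is present. A fully reprogrammed cell switches on its own copies of Oct4 and Sox2 together with Nanog, Esrrb, Zfp42 and other partners, which maintain one another, so the inducible copies are no longer needed. Clones that look reprogrammed but fall back when the drug is removed are called factor-dependent. The values here do not separate a factor's own transcripts from those of its inducible copy.

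The labels were checked against marker genes. All 8 pluripotency markers (Nanog, Esrrb, Zfp42, Dppa3, Dppa5a, Lin28a, Utf1 and Tdh) reached 1 RPKM (reads per kilobase of transcript, scaled to sequencing depth) in each SC iPS library, where they summed to 638.9 to 1085 RPKM. In SI d27 they summed to 19.35 to 53.22 RPKM, and Dppa3, Dppa5a and Lin28a stayed under 1 RPKM in all 4 libraries. The leukocyte marker Ptprc and the endothelial markers Cdh5, Kdr and Tie1 were under 1 RPKM in all libraries of both groups. The 4 leukocyte markers, Ptprc, Csf1r, Tyrobp and Cd68, summed to 8.42 to 11.85 RPKM in SC iPS, 6.39 to 7.47 in SI d27 and 18.87 to 19.46 in feeders. In SC iPS and in SI d27, 2 of them reached 1 RPKM in every library. Fibroblast markers were present in both: 8 of them summed to 324 to 823 RPKM in SC iPS, 699.6 to 771.9 in SI d27 and 3195 to 3433 in feeders. In bulk libraries fewer cells of a type and less RNA per cell cannot be told apart. The depth read from the values was 31.4 to 90.0 megareads in the 8 libraries, up to a whole multiple.

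A pair of libraries stood apart from their groups, and the list counts that moved most without either of them are also given without it. In the SC2 iPS library, 189 of 11844 genes tested were at least 2-fold above the other 3 SC iPS libraries and 63 at least 2-fold below. Of the 189, 185 (97.9%) were also at least 2-fold higher in feeders than in those 3 libraries, against 17.8% of all genes tested. The collagens Col1a1 and Col5a1 and the smooth muscle actins Acta2 and Actg2 were among them. Of the 63, 62 (98.4%) were at least 2-fold lower in feeders, against 23.3% of all genes tested. In the SI3 d27 library 62 genes were at least 2-fold below the other 3 SI d27 libraries, and 12 epithelial and 6 squamous list members were among these, including Cdh1, Epcam, Krt8 and Krt6a. Each Y-linked gene was set against its feeder mean. The median of these ratios ranged from 0.168 to 2.227 in SC iPS and from 0.244 to 3.429 in SI d27, so the clones of a group were unlike in it. None of the 3 Y-linked genes tested passed the threshold in limma's test.

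The groups differed across much of the transcriptome, mostly by small amounts. Differences are given as SC iPS minus SI d27 in mean log2(RPKM + 1), with the standard error (SE) and a Benjamini-Hochberg adjusted p from limma; the added 1 shrinks the difference of weakly expressed genes. Of 11844 genes, 6514 (55%) passed an adjusted p of 0.05, 2348 (19.8%) higher and 4166 (35.2%) lower in SC iPS. At least 4-fold differences were called for 207 genes higher (1.75%) and 254 lower (2.14%). The median over all genes tested was -0.11, and rescaling each library by its median ratio removed that shift and gave 3483 genes higher and 3350 lower. Most of the large differences on the higher side were close to on and off: 131 of the 207 (63.3%) were under 1 RPKM in all 4 SI d27 libraries. On the lower side fewer were, as 110 of the 254 (43.3%) were under 1 RPKM in all 4 SC iPS libraries. Of all 11844 genes tested, 400 were under 1 RPKM in all SI d27 libraries and 356 in all SC iPS libraries. Without the SC2 iPS library 8269 genes passed, 3552 higher (30%) and 4717 lower (39.8%), and 239 and 269 were at least 4-fold apart. The 4-fold sets depend on the added constant: with 0.1 in place of 1 they held 418 genes higher and 465 lower. Counts for gene lists stand beside the shares over all genes, 19.8% higher and 35.2% lower (29.4% and 28.3% after median ratio scaling). A list member under 1 RPKM in all libraries of a group entered the test only through the other group and had to differ, so counts for lists with many such members are descriptions.

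All 4 reprogramming factors were lower in SC iPS, by unlike amounts. Pou5f1 was at 383, 240, 376 and 406 RPKM in SC iPS clones 1 to 4 and at 759, 988, 686 and 864 in SI d27 clones 1 to 4 (difference -1.24, SE 0.19, adjusted p = 0.000439). The groups did not overlap, and SC2 was the lowest of the 8. Klf4 was at 14.65, 12.04, 12.32 and 10.09 RPKM against 139, 175, 107 and 137 (-3.39, SE 0.16, adjusted p = 2.74e-07), which put SC iPS near the feeder mean of 14.4. Myc was at 13.2, 16.3, 12.5 and 15.4 RPKM against 81.7, 97.8, 67.1 and 81.8 (-2.43, SE 0.13, adjusted p = 6.32e-07). Neither gene's groups overlapped. Sox2 was the factor least apart: 118, 64.8, 90.7 and 79.2 RPKM against 123, 149, 106 and 116 (-0.50, SE 0.18, adjusted p = 0.0395). Clone SC1 lay within the SI d27 range, and the call for Sox2 was lost in 10 of 13 alternatives, where the adjusted p over all 13 ran from 0.00869 to 0.45.

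The genes of the pluripotency network rose together. Of 20 naive pluripotency genes tested, 18 were higher and none lower (median 2.87), and of 16 late pluripotency genes 14 were higher and none lower (median 3.00). All members of both lists found in the table were tested, and 3 and 6 of them, respectively, were under 1 RPKM in all SI d27 libraries. Dppa5a, an RNA-binding protein of early embryos, had the largest rise among all genes named by size: 489, 276, 391 and 340 RPKM against 0.27, 0.32, 0.08 and 0.40 (8.18, SE 0.17, adjusted p = 3.92e-09). Lin28a, which blocks let-7 microRNA maturation, was at 85.1, 71.6, 85.0 and 90.6 RPKM against 0.40, 0.18, 0.24 and 0.43 (6.00, SE 0.10, adjusted p = 1.56e-09). Both were thus near 0 in all SI d27 libraries and high in all 4 SC iPS libraries. Zfp42 (Rex1), a zinc finger protein long used as a marker of naive cells, was at 126, 80.3, 115 and 93.2 RPKM against 1.16, 2.34, 0.71 and 0.98 (5.54, SE 0.21, adjusted p = 1.08e-07). Utf1, a chromatin-bound factor, rose by the same 5.54 (SE 0.25, adjusted p = 2.61e-07).

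Nanog and Esrrb, core factors of the network, were above 1 RPKM in SI d27, except for Esrrb in SI3. Nanog was at 107, 61.3, 126 and 114 RPKM in SC iPS and at 15.2, 14.0, 6.55 and 18.2 in SI d27 (2.86, SE 0.31, adjusted p = 5.18e-05). Esrrb was at 42.6, 21.2, 25.9 and 20.7 RPKM against 4.65, 3.84, 0.47 and 3.35 (2.91, SE 0.41, adjusted p = 0.000262). In both genes SI3 was the lowest of the 8 libraries and the groups did not overlap. Klf2, a Krüppel-like factor that can take the place of Klf4, was higher in SC iPS (46.6, 24.0, 42.4 and 35.2 against 1.51, 2.05, 1.19 and 1.67 RPKM; 3.84, SE 0.19, adjusted p = 4.6e-07), opposite to Klf4 itself. Of these 36 genes 4 did not pass, Nr5a2, Gdf3 and the more strongly expressed Nr0b1 (24.2, 17.6, 15.7 and 11.0 against 11.6, 15.1, 9.47 and 16.3 RPKM, adjusted p = 0.232) and Alpl, the alkaline phosphatase used to stain colonies (20.3, 11.7, 21.9 and 19.9 against 19.7, 23.7, 19.9 and 17.5 RPKM, adjusted p = 0.509). The groups of Nr0b1 and Alpl overlapped. Nr5a2 and Gdf3 were named after their values were seen.

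**Figure D1:**
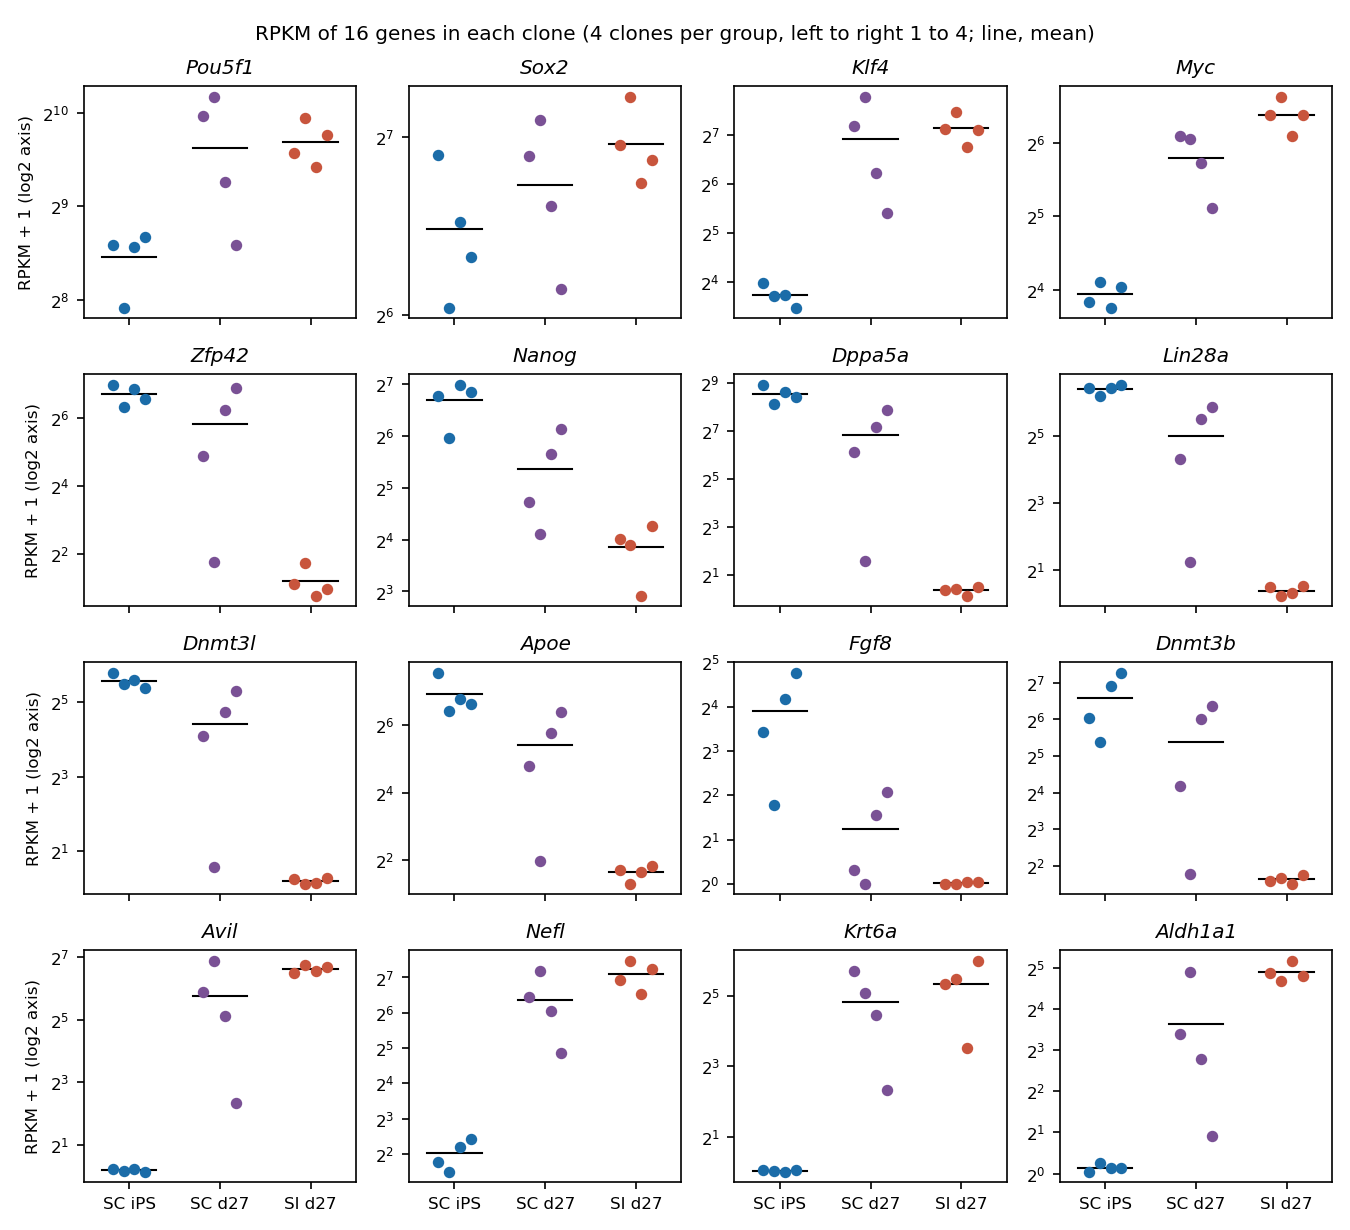
Points are the RPKM + 1 of 16 genes on a log2 axis in SC iPS (blue), SC d27 (purple) and SI d27 (red), with clones 1 to 4 from left to right and a line at the mean. Klf4 and Myc sit low and Zfp42, Dppa5a, Lin28a and Dnmt3l high in all 4 SC iPS libraries, while SC d27 clones spread between the 2 groups, SC2 on the SI d27 side for most of the rising genes.

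The bases before the start sites of Zfp42 and Nanog are shown because both genes rose and both windows hold a sequence that Oct4 is known to bind. Sequences are from RefSeq (GRCm38.p6), 5′ to 3′, and cover the 250 bases before the start. Capitals mark the octamer ATTTGCAT in Zfp42 (minus strand, chr8:43307010-43307259, first base 186 before the start) and the joint Oct4 and Sox2 motif in Nanog (plus strand, chr6:122707239-122707488, first base 74 before the start, the first of 2 windows listed).
Zfp42: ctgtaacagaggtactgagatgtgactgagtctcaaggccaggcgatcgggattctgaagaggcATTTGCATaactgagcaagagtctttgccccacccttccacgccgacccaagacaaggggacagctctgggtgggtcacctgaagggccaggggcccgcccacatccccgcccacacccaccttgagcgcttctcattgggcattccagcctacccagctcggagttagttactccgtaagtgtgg
Nanog: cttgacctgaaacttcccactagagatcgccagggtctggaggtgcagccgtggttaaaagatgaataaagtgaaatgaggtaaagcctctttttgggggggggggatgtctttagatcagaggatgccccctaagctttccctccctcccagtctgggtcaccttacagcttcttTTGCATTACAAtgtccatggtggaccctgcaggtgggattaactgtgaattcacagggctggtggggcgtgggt

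Genes of the primed epiblast, the next stage in the embryo, were also higher in SC iPS, with more spread between clones. Of 8 tested, 7 were higher and 1 lower (median 2.92), a description, since 5 of the 8 were under 1 RPKM in all SI d27 libraries. Dnmt3b, a de novo DNA methyltransferase, was at 64.9, 40.8, 120 and 154 RPKM against 1.99, 2.21, 1.86 and 2.39 (4.77, SE 0.35, adjusted p = 4.77e-06). Fgf8, a growth factor of the late epiblast and the streak, was at 9.81, 2.44, 16.9 and 26.3 RPKM against 0, 0, 0.03 and 0.03 (3.52, SE 0.52, adjusted p = 0.000388). SC2 was the lowest SC iPS library for both, and SC3 and SC4 the highest. Fgf5 (3.08, SE 0.45, adjusted p = 0.000357) and Pou3f1 (3.26, SE 0.33, adjusted p = 3.47e-05), a pair of epiblast markers, had the same order of clones. The Nodal inhibitors Lefty1 (5.43, SE 0.28, adjusted p = 5.75e-07) and Lefty2 (5.16, SE 0.33, adjusted p = 2.01e-06) rose together with Nodal itself (15.3, 10.2, 19.9 and 22.3 against 0.23, 0.20, 0.28 and 0.29 RPKM). Nodal was chosen after its values were seen.

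A low level of some lineage regulators accompanied them, and others were lower. Of 3 streak and mesoderm genes tested 2 were higher and 1, Evx1, lower (-1.06, SE 0.32, adjusted p = 0.02 in limma). Of 3 endoderm genes 1 was higher and 1, Gata4, lower (-0.86, SE 0.18, adjusted p = 0.00323 in limma). All 3 trophoblast genes tested were higher. In the streak and trophoblast lists 2 members each were under 1 RPKM in all SI d27 libraries, so these counts are descriptions. Eomes, a T-box factor of the streak and the trophoblast, was at 5.95, 1.73, 7.15 and 13.8 RPKM against 0.08, 0.20, 0.13 and 0.18 (2.59, SE 0.41, adjusted p = 0.000577). Pecam1, an adhesion molecule of endothelium that embryonic stem cells also carry, was at 8.65, 4.81, 14.5 and 11.2 RPKM against 0.04, 0.06, 0.04 and 0.08 (3.27, SE 0.25, adjusted p = 6.45e-06). The endothelial markers Cdh5, Kdr and Tie1 stayed under 1 RPKM. Of 4 endothelial list genes tested 1 was higher and 1 lower. The lower one, Tek, was at 0.93, 0.48, 1.53 and 1.09 RPKM against 5.12, 4.79, 6.22 and 5.01 (-1.67, SE 0.16, adjusted p = 2.22e-05 in limma). Eng was at 4.52 to 5.91 RPKM in SC iPS and 3.17 to 11.0 in SI d27 and did not pass. None of the 6 genes of the two-cell-like list found in the table entered the test. Their summed level was 1.08 to 3.28 RPKM in SC iPS and at most 0.04 in SI d27.

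Germline and DNA methylation genes were also examined. Of 16 germline and meiosis genes found, 9 passed the filter on low values, and 8 of these were under 1 RPKM in all SI d27 libraries, so their being higher is a description. Ddx4 (Vasa), an RNA helicase of germ cells, was at 4.20, 3.41, 6.26 and 5.48 RPKM against 0, 0.02, 0 and 0.02 (2.50, SE 0.15, adjusted p = 1.13e-06). Rnf17 (3.01, SE 0.20, adjusted p = 2.75e-06), a component of germ cell granules, and Trap1a (4.91, SE 0.15, adjusted p = 2.51e-08), a tumour rejection antigen, were likewise near 0 in SI d27. Dnmt3l, the cofactor of the de novo methyltransferases, was at 54.5, 44.3, 47.8 and 40.5 RPKM against 0.19, 0.09, 0.10 and 0.22 (5.37, SE 0.10, adjusted p = 2.96e-09). The maintenance methyltransferase Dnmt1 was at 56.3, 38.4, 50.9 and 46.9 RPKM against 50.2, 53.7, 55.8 and 47.9, and its groups overlapped (adjusted p = 0.434). The TET dioxygenases, which oxidise methylcytosine, moved in opposite directions. Tet1 was at 31.8, 25.5, 25.5 and 22.2 RPKM against 1.26, 1.57, 1.79 and 1.31 (3.45, SE 0.12, adjusted p = 5.85e-08). Tet3 was at 1.08, 1.52, 1.42 and 1.79 RPKM against 7.82, 8.17, 7.73 and 7.27 (-1.84, SE 0.10, adjusted p = 7.31e-07). Tet2, chosen after its values were seen, was at 5.14, 5.37, 4.81 and 3.40 RPKM against 19.99, 20.9, 17.5 and 21.6 (-1.90, SE 0.13, adjusted p = 2.67e-06). SI d27 clones thus held Tet2 and Tet3 transcripts and little Tet1, and SC iPS the reverse.

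Polycomb genes, which keep developmental genes silent, split by subunit: 10 of 21 were higher and 6 lower (median 0.58), beside 19.8% and 35.2% of all genes. Jarid2, an accessory subunit of Polycomb repressive complex 2, was at 69.1, 54.2, 81.1 and 74.0 RPKM against 17.4, 16.7, 16.4 and 14.5 (2.02, SE 0.13, adjusted p = 1.7e-06). Phf19 of the same complex rose by 2.39 (SE 0.15, adjusted p = 1.7e-06). Cbx7, the chromodomain subunit of complex 1 typical of embryonic stem cells, was at 16.9, 9.61, 15.3 and 15.7 RPKM against 1.29, 1.46, 1.62 and 1.27 (2.65, SE 0.16, adjusted p = 1.34e-06). Its relative Cbx8 went the other way (-0.81, SE 0.10, adjusted p = 0.000153). Bmi1, the RING partner of complex 1 in somatic stem cells, was at 1.20, 2.65, 0.85 and 0.90 RPKM against 8.25, 8.40, 9.80 and 8.07 (-2.06, SE 0.20, adjusted p = 2.79e-05). Jarid2, Cbx8 and Bmi1 were chosen after their values were seen.

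Signalling genes changed less evenly. In the FGF pathway 7 of 15 genes tested were higher and 2 lower (median 0.34), with 4 lower without the SC2 iPS library. Fgf4, the autocrine ligand of embryonic stem cells, was at 18.03, 11.0, 20.8 and 13.1 RPKM against 3.53, 6.01, 2.60 and 4.04 (1.73, SE 0.23, adjusted p = 0.000218). In the LIF and STAT3 pathway 3 of 8 were higher and 1 lower (median 0.08), with 3 lower without the SC2 iPS library. The receptor Lifr (1.13, SE 0.13, adjusted p = 8.22e-05) and the STAT3 target Pim1 (1.54, SE 0.17, adjusted p = 6.62e-05) were among the higher ones. The shared receptor chain Il6st was at 14.9, 19.5, 14.5 and 13.3 RPKM against 16.1, 15.4, 17.2 and 14.3 and did not pass (adjusted p = 0.852). In the BMP pathway 4 of 13 were higher and 6 lower (median -0.05): the ligand Bmp4 was at 6.85, 4.00, 3.90 and 3.38 RPKM against 0.61, 1.00, 0.78 and 0.86 (1.58, SE 0.17, adjusted p = 5.75e-05), whereas the target Id2 was at 5.08, 6.25, 4.52 and 4.67 RPKM against 12.4, 10.2, 12.6 and 13.2 (-1.10, SE 0.11, adjusted p = 4.31e-05). Of 13 TGF-beta and YAP target genes none was higher and 5 were lower (median -0.53), near the 35.2% of all genes. Without the SC2 iPS library 1 was higher and 11 were lower, where 39.8% of all genes were lower. The ligand Tgfb2 was at 0.38, 1.03, 0.58 and 0.53 RPKM against 3.53, 2.65, 4.22 and 2.55 (-1.37, SE 0.16, adjusted p = 7.85e-05).

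The largest falls included an advillin and a neurofilament gene, keratins, a forkhead factor and enzymes of aldehyde and fatty acid metabolism. Avil, the actin-binding advillin of sensory neurons, was at 0.17, 0.12, 0.16 and 0.10 RPKM in SC iPS and at 90.1, 108, 93.4 and 101 in SI d27, with a feeder mean of 0.237 (-6.44, SE 0.08, adjusted p = 1.98e-10). Nefl, the neurofilament light chain, was at 2.43, 1.81, 3.57 and 4.32 RPKM against 120, 177, 92.1 and 150 (-5.08, SE 0.24, adjusted p = 3.29e-07). The groups were far apart in both genes and did not overlap. Foxd1, a forkhead factor of kidney stroma and retina, was at 0.18, 0.21, 0.10 and 0.15 RPKM against 38.4, 34.0, 50.7 and 22.1 (-4.95, SE 0.21, adjusted p = 1.54e-07). The aldehyde dehydrogenases Aldh1a1, which makes retinoic acid (0.03, 0.20, 0.09 and 0.09 against 28.4, 24.3, 35.0 and 27.0 RPKM; -4.74, SE 0.11, adjusted p = 8.67e-09), and Aldh3a1, an enzyme of cornea (-4.77, SE 0.40, adjusted p = 1.12e-05), were under 1 RPKM in all SC iPS libraries and in the feeder mean. So was Cyp4f39, a fatty acid hydroxylase of epidermis (-4.91, SE 0.31, adjusted p = 1.71e-06). Of 9 neural genes tested 6 were lower and 2 higher (median -1.92), and 4 of the 9 were under 1 RPKM in all SC iPS libraries. Zic1 (-3.48, SE 0.17, adjusted p = 4.19e-07), a neural plate factor, and Stmn2, a microtubule regulator of neurons (52.5, 33.6, 49.6 and 41.6 against 194, 225, 209 and 216 RPKM; -2.24, SE 0.14, adjusted p = 1.66e-06), were among those that fell. The 2 that were higher were Tubb3, a neuronal tubulin (means of 22.7 against 10.9 RPKM, adjusted p = 0.0124), and Gap43, a growth cone protein (13.1 against 3.94 RPKM, adjusted p = 3.72e-05), both named after their values were seen. The 3 neural markers summed to 18.72 to 28.22 RPKM in SC iPS and to 6.77 to 22.15 in SI d27. Of these markers, Dcx was under 1 RPKM in all libraries of both groups. Pax6 was under 1 RPKM in all SC iPS libraries but reached it in some SI d27 libraries.

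Squamous genes were among the falls. Of 20 squamous and keratinocyte genes found 11 were tested, of which 9 were lower and none higher (median -2.47); 6 of the 11 were under 1 RPKM in all SC iPS libraries, so the count is a description. Krt6a, a keratin of stressed epidermis, was at 0.03, 0.02, 0 and 0.03 RPKM against 39.7, 43.5, 10.4 and 62.9 (-5.05, SE 0.44, adjusted p = 1.41e-05). Krt6b was listed at 0 in all 4 SC iPS libraries and at 19.9, 46.7, 13.2 and 58.2 RPKM in SI d27. Perp, a desmosome protein and p53 target, was at 7.88, 5.55, 6.57 and 7.89 RPKM against 115, 154, 79.5 and 145 (-3.93, SE 0.20, adjusted p = 5.11e-07). Dsp, which anchors keratin to desmosomes, was at 2.53, 1.06, 3.09 and 2.47 RPKM against 86.2, 106, 42.9 and 98.5 (-4.65, SE 0.30, adjusted p = 2.1e-06). Lgals7, a galectin of stratified epithelium, fell by 4.66 (SE 0.19, adjusted p = 1.48e-07). The SI3 d27 library was the lowest SI d27 library for Krt6a, Krt6b, Perp and Dsp, and 10 list members were lower without it. The keratinocyte markers Krt5, Krt14 and Trp63 were under 1 RPKM in all SC iPS libraries, and Trp63 also in all SI d27 libraries. The 4 markers of that cell type summed to 3.67 to 13.32 RPKM in SI d27, and the part of keratinocyte-like cells in the falls was not tested.

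Of 22 general epithelial genes tested, 4 were higher, 6 lower, Dsp among them, and 12 did not pass (median -0.42). E-cadherin (Cdh1) was at 59.2, 28.1, 60.8 and 61.0 RPKM against 42.2, 51.8, 10.8 and 59.1 (0.51, SE 0.49, adjusted p = 0.401), and the difference was -0.02 without the SI3 d27 library. Epcam was at 55.9, 23.6, 66.6 and 65.4 RPKM against 61.1, 84.9, 20.5 and 72.6 (adjusted p = 0.862). In both genes SC2 iPS and SI3 d27 were the lowest of their groups. Members moved both ways: the splicing regulator Esrp2 fell (-1.58, SE 0.28, adjusted p = 0.00105), and the simple keratins Krt8 (5.87, 2.39, 8.49 and 9.34 against 30.8, 50.2, 8.78 and 48.1 RPKM) and Krt19 (4.04, 1.41, 7.07 and 5.76 against 0.81, 0.90, 0.48 and 1.10 RPKM) differed in opposite directions. Krt8 fell by 2.11 (SE 0.54, adjusted p = 0.00841) and Krt19 rose by 1.49 (SE 0.33, adjusted p = 0.00378). This pair was chosen after the values were seen.

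**Figure D2:**
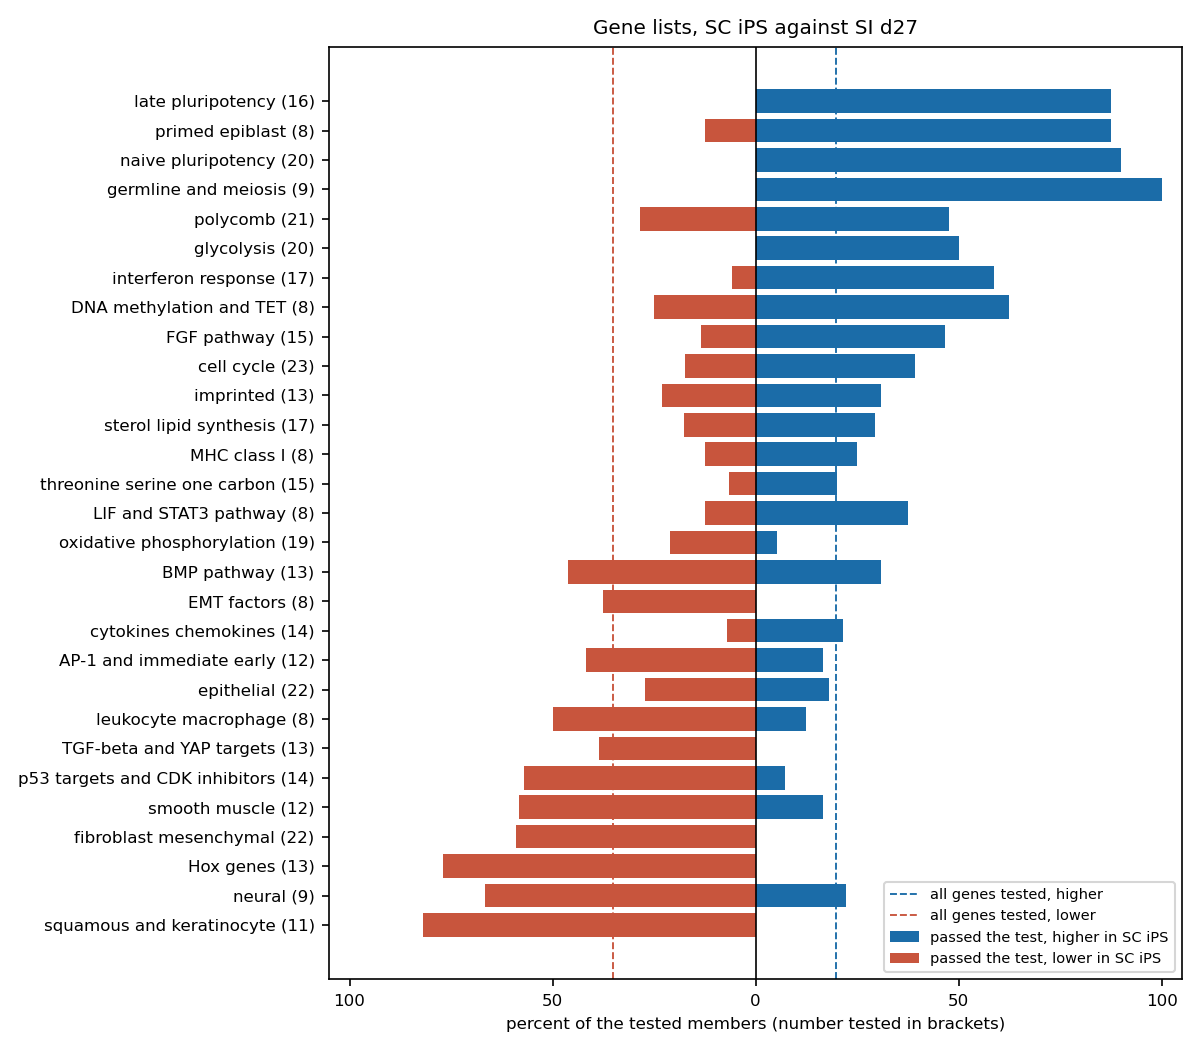
Bars give the percent of each list's tested members that passed the test, higher (right, blue) or lower (left, red) in SC iPS, for lists with 8 or more tested, ordered by their median difference. Dashed lines mark the same percent over all 11844 genes tested (19.8% higher, 35.2% lower); pluripotency, epiblast and germline lists lie at the top and the squamous, neural and Hox lists at the bottom.

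Part of the mesenchymal genes were lower in SC iPS, with SC2 standing apart. Of 22 fibroblast and mesenchymal genes 13 were lower and none higher (median -0.80), beside 35.2% of all genes. Without the SC2 iPS library 19 were lower (39.8% of all genes), and 9 were lower after median ratio scaling (28.3%). In 1 fit over all groups 7 were lower, near the 30.7% of all genes. Col5a1, a chain of collagen V, was at 26.7, 58.3, 25.3 and 24.4 RPKM against 78.1, 75.9, 76.9 and 68.2 (-1.22, SE 0.25, adjusted p = 0.00233). Ccn4, a matricellular Wnt target, was at 3.14, 12.5, 2.87 and 3.23 RPKM against 17.7, 14.2, 15.5 and 15.4 (-1.60, SE 0.36, adjusted p = 0.00418). Thy1, the fibroblast surface marker lost early in reprogramming, was at 68.8, 140, 54.2 and 59.1 RPKM against 114, 115, 105 and 119 and did not pass (adjusted p = 0.079), though it did without the SC2 iPS library (-0.89, adjusted p = 3.16e-05 in limma). Fibronectin (Fn1) was at 311, 481, 293 and 266 RPKM against 331, 379, 313 and 334 (-0.04, adjusted p = 0.866). Without the SC2 iPS library it passed as lower (-0.22, adjusted p = 0.0447 in limma), and its direction turned in 4 of 13 alternatives. Of 12 smooth muscle genes 7 were lower and 2 higher (median -0.78), beside 35.2% and 19.8% of all genes. Without the SI3 d27 library 5 were lower (32.7% of all genes) and 1 higher. Without the SC2 iPS library 10 were lower (39.8%). After median ratio scaling 2 were lower (28.3% of all genes), and in 1 fit over all groups also 2 (30.7%). The actin Acta2 was at 73.9, 269, 64.4 and 71.4 RPKM against 364, 304, 322 and 313 (-1.72, SE 0.40, adjusted p = 0.00499), and its relative Actg2 at 4.97, 20.2, 4.05 and 4.42 against 53.4, 69.8, 37.2 and 57.7 (-2.82, SE 0.43, adjusted p = 0.000433). Feeders held far more of both, at means of 1834 and 165 RPKM. Each of the 22 fibroblast and mesenchymal genes was also set against its feeder mean. The median of these ratios was 0.103 to 0.272 in SC iPS libraries and 0.205 to 0.227 in SI d27 libraries. The part of feeder cells in these values was not tested.

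**Figure D3:**
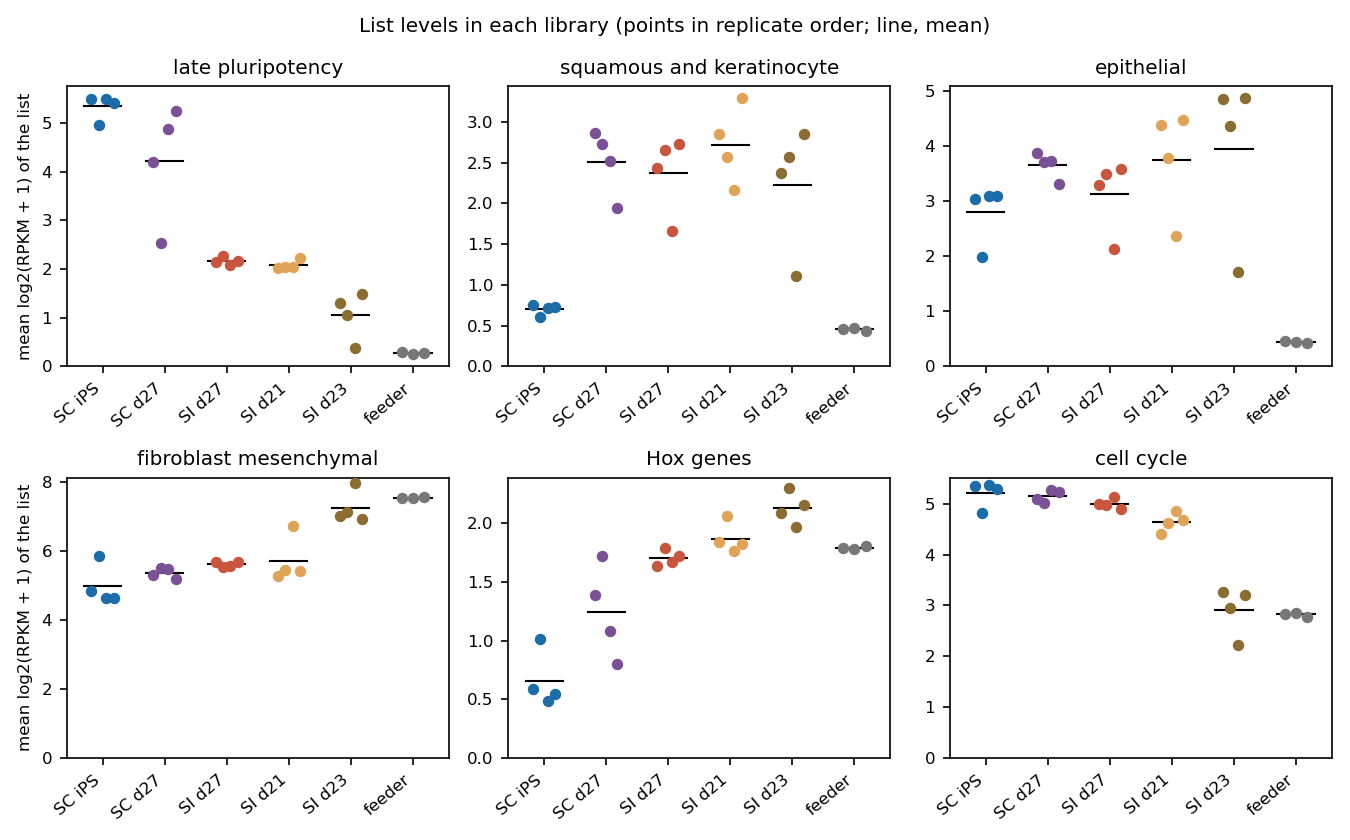
Points are the mean log2(RPKM + 1) over all members of 6 lists in each library, with replicates in order and a line at the group mean. Late pluripotency genes are high and squamous and Hox genes low in SC iPS. The SC2 iPS library is high for fibroblast and low for epithelial genes, and clone SI3 is low for epithelial genes in the 3 SI groups shown.

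Hox genes, which record position along the body axis, were mostly lower in SC iPS where tested. Of 19 found 13 were tested, of which 10 were lower and none higher (median -0.81), and all 13 were lower without the SC2 iPS library. As 6 of the 13 were under 1 RPKM in all SC iPS libraries, these counts are descriptions. Hoxa9 was at 0.41, 0.57, 0.21 and 0.23 RPKM against 12.6, 12.5, 9.22 and 13.4 (-3.25, SE 0.13, adjusted p = 1.34e-07), above the feeder mean of 1.37 in SI d27. Hoxa7 was at 0.32, 0.82, 0.34 and 0.37 RPKM against 7.45, 6.76, 5.86 and 7.23 (-2.43, SE 0.12, adjusted p = 4.79e-07). The SI d27 libraries thus held both genes above their feeder means (1.74 RPKM for Hoxa7) and the SC iPS libraries below them. This did not hold for the list as a whole. Over all Hox genes found, the mean log2(RPKM + 1) was 1.64 to 1.79 in SI d27 libraries and 1.78 to 1.81 in feeders. Hoxc6 had means of 3.04 RPKM in SI d27 and 9.77 in feeders. It did not pass between SC iPS and SI d27 (adjusted p = 0.426 in limma).

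Genes of cell cycle restraint and of metabolism gave the following counts. Of 14 p53 targets and CDK inhibitors tested, 8 were lower (35.2% of all genes were) and 1 higher, none without the SI3 d27 library (median -0.60). Cdkn2a, which encodes p16 and p19Arf and is a barrier to reprogramming, was at 12.3, 15.5, 8.27 and 9.48 RPKM against 35.1, 43.0, 36.6 and 43.6 (-1.74, SE 0.17, adjusted p = 3.26e-05). Phlda3, a p53 target that restrains Akt, fell by 1.45 (SE 0.10, adjusted p = 2.39e-06). Of 23 cell cycle genes 9 were higher and 4 lower (median 0.27), with 13 higher without the SC2 iPS library. Of 20 glycolysis genes 10 were higher, beside 19.8% of all genes, and none lower (median 0.55). Without the SC2 iPS library 18 were higher (30% of all genes), and 15 after median ratio scaling (29.4%). Pdk1, the kinase that holds pyruvate out of the mitochondrion, was at 14.2, 8.24, 10.3 and 9.28 RPKM against 3.88, 5.01, 4.64 and 4.62 (1.03, SE 0.15, adjusted p = 0.000326). Pfkl, the liver phosphofructokinase, rose by 0.99 (SE 0.17, adjusted p = 0.000881). Of 19 respiratory chain genes 1 was higher and 4 lower (median -0.03). Without the SC2 iPS library 5 were higher and 5 lower, and 3 were higher after median ratio scaling. Over all 8 libraries the gene that rose was Cox7a1, a subunit of cytochrome oxidase (2.12, SE 0.32, adjusted p = 0.000407). Scd1, the stearoyl-CoA desaturase, was at 23.3, 22.4, 27.4 and 26.8 RPKM against 69.4, 68.8, 70.5 and 61.0 (-1.40, SE 0.09, adjusted p = 2.75e-06).

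Immune and imprinted genes gave mixed results. Of 17 interferon response genes 10 were higher and 1 lower (median 0.54), beside 19.8% and 35.2% of all genes. Stat2, a transducer of type I interferon, was at 14.8, 11.0, 16.1 and 12.5 RPKM against 5.36, 4.36, 5.68 and 6.38 (1.18, SE 0.14, adjusted p = 8.36e-05). In 1 fit over all groups 3 of the 17 were higher, near the 16.8% of all genes. Of 8 MHC class I genes 2 were higher and 1 lower (median 0.21), with 2 lower without the SC2 iPS library and none without SI3 d27. The immunoproteasome subunit Psmb8 rose by 2.11 (SE 0.50, adjusted p = 0.00564). B2m, the light chain of MHC class I, was at 163, 313, 144 and 161 RPKM against 309, 245, 302 and 308. Its groups overlapped through SC2, and its adjusted p of 0.0372 passed in 3 of 13 alternatives. Of 8 leukocyte genes tested 1 was higher and 4 lower. Laptm5, a lysosomal protein of blood cells, was at 4.39, 3.94, 2.65 and 2.19 RPKM against 28.9, 28.4, 26.8 and 26.7 (-2.77, SE 0.16, adjusted p = 9.99e-07). The leukocyte marker Cd68 went the other way (1.16, SE 0.18, adjusted p = 0.000496 in limma), and Ptprc stayed under 1 RPKM in all libraries of both groups. Of 13 imprinted genes 4 were higher and 3 lower (median 0.24), with 6 higher without the SC2 iPS library. Phlda2, a restraint on placental growth, was at 9.02, 8.30, 12.9 and 12.4 RPKM against 0.17, 0.11, 0.09 and 0.31 (3.30, SE 0.14, adjusted p = 1.98e-07). Plagl1, a zinc finger factor of an imprinted network, was at 1.76, 2.95, 2.24 and 2.44 RPKM against 24.7, 17.9, 32.0 and 19.5 (-2.85, SE 0.18, adjusted p = 1.87e-06).

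A further comparison, in libraries that the first did not use, showed which of these genes changed in SI clones when the drug was removed: SI d23, after 2 days without it, against SI d21. The libraries come from the same 4 SI clones. Of 11796 genes tested 6445 (54.6%) passed, 2676 (22.7%) higher and 3769 (32%) lower after withdrawal. Of the 254 genes at least 4-fold lower in SC iPS, 252 were tested here and 211 (83.7%) fell after withdrawal, with a median of -2.01, against 33.1% of the 11310 genes tested in both comparisons. Most of the transcripts higher in SI d27 than in SC iPS by this margin were thus also lower 2 days after the drug was removed. These genes were chosen for high levels in SI d27 libraries of the same 4 clones, so they had room to fall. The 33.1% covers genes at all levels, so the 83.7% beside it is a description. The share held for the large differences: of all 4115 genes called lower in SC iPS and tested here 35% fell, close to the share over all genes. Of the 120 such genes at least 4-fold lower with a feeder mean under 1 RPKM 107 (89.2%) fell, and of the 132 with a higher feeder mean 104 (78.8%). On the rise side 83 of the 207 genes at least 4-fold higher in SC iPS were tested, of which 17 (20.5%) fell and 23 (27.7%) rose, against 33.1% and 21.3% of all. The 2 sets were chosen for opposite levels in SI d27, and 131 of the 207 were under 1 RPKM in all 4 SI d27 libraries. Such genes had little room to fall, so the shares of the 2 sides cannot be compared. Of the 124 not tested, 94 were under 1 RPKM in all 8 SI d21 and SI d23 libraries.

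Single genes gave the size of the change. Mean levels are given with their SD over 4 clones. Sox2 was at 124 RPKM ± 33.8 in SI d21 and at 2.12 ± 0.508 in SI d23 (-5.29, SE 0.21, adjusted p = 8.51e-06), and Pou5f1 at 973 ± 312 and 67.5 ± 42.1 (-4.25, SE 0.74, adjusted p = 0.00169). The SC iPS clones, 6 days after the drug, held 64.8 to 118 RPKM of Sox2. Avil went from 122 RPKM ± 41.8 to 3.74 ± 2.32 (-4.79, SE 0.44, adjusted p = 0.000122) and Nefl from 73.4 ± 18.1 to 1.10 ± 0.425 (-5.14, SE 0.22, adjusted p = 8.51e-06). Cyp4f39 had the steepest fall of the genes named here, from 84.3 RPKM ± 40.8 to 0.173 ± 0.149 (-5.97, SE 0.45, adjusted p = 6.65e-05). Krt6a (-4.26, SE 0.57, adjusted p = 0.000498) and Aldh1a1 (-4.01, SE 0.24, adjusted p = 2.45e-05) fell too. Of the pluripotency genes present in SI d21, Nanog fell from 26.9 RPKM ± 15.4 to 0.97 ± 1.21 (-3.69, SE 0.61, adjusted p = 0.00129). Nr0b1 (-3.44, SE 0.30, adjusted p = 9.87e-05) and Alpl (-3.51, SE 0.47, adjusted p = 0.000503), whose groups overlapped between SC iPS and SI d27, fell as well in SI clones without the drug. Apoe, an apolipoprotein at 184, 83.7, 107 and 96.6 RPKM in SC iPS and 2.31, 1.48, 2.17 and 2.60 in SI d27 (5.19, SE 0.23, adjusted p = 2.08e-07), rose after withdrawal from 3.77 ± 0.412 to 21.9 ± 6.31 (2.23, SE 0.19, adjusted p = 9.23e-05).

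Of the 252 genes, 36 did not pass in either direction and 5 rose; the 36 include genes with lower means after withdrawal. Hoxa9 was at 14.6 RPKM ± 5.59 in SI d21 and 9.61 ± 5.35 in SI d23 (-0.72, SE 0.56, adjusted p = 0.297), and Hoxa7 at 6.03 ± 1.35 and 8.16 ± 4.78 (0.20, SE 0.43, adjusted p = 0.716). Dsp was at 104 RPKM ± 53.4 and 43.2 ± 26.8 (-1.48, SE 0.73, adjusted p = 0.115). With the clone as a block, Hoxa9 (adjusted p = 0.0178) and Dsp (adjusted p = 0.00313) passed as lower and Hoxa7 still did not. Among the 5 that rose were Actg2 (1.48, SE 0.21, adjusted p = 0.000613), Pla1a, a phospholipase (0.80, SE 0.26, adjusted p = 0.0274), and the keratins Krt8 (2.39, SE 0.88, adjusted p = 0.0447) and Krt14 (2.33, SE 0.87, adjusted p = 0.0477). Pla1a, Krt8 and Krt14 are named because the count is small, after their values were seen. Krt14 ranged from 5.53 to 25.7 RPKM in SI d21 and from 7.35 to 135 in SI d23, and Krt8 and Krt14 each lost their call in 8 of 13 alternatives. Over the same 2 days Col5a1 (1.86, SE 0.28, adjusted p = 0.000889), Tgfb2 (2.36, SE 0.26, adjusted p = 0.000216) and Cdkn2a (1.09, SE 0.21, adjusted p = 0.00298), each lower in SC iPS than in SI d27, rose too.

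**Figure D4:**
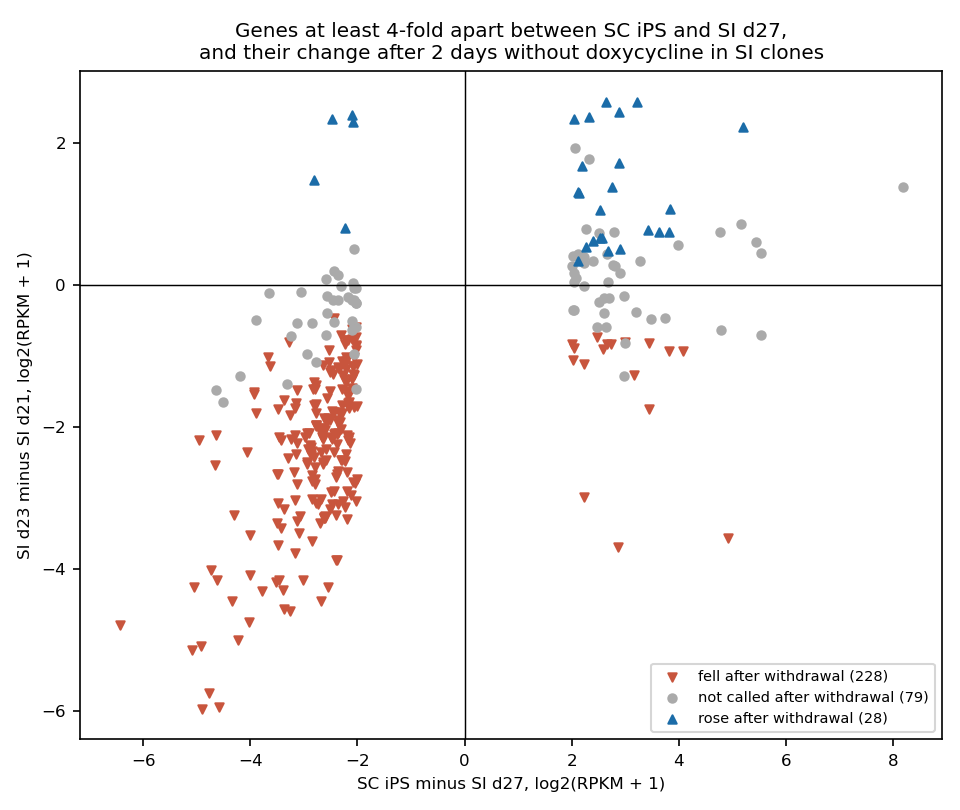
Each point is 1 of the 335 genes at least 4-fold apart between SC iPS and SI d27 that were tested in both comparisons, with that difference on the horizontal axis and the change from SI d21 to SI d23 on the vertical axis, both in log2(RPKM + 1). On the left, 211 of 252 genes fell after withdrawal and 5 rose; on the right, 17 of 83 fell and 23 rose.

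SC clones still on the drug lay between the 2 groups and differed from each other. On a scale where the SI d27 mean is 0 and the SC iPS mean is 100, the median position over the 207 higher genes was 40.5 for SC1 d27, 2.6 for SC2 d27, 72.9 for SC3 d27 and 89.1 for SC4 d27. Over the 254 lower genes it was 9.8, -8.6, 39.1 and 80.8. Dppa5a shows the same order, at 68.9, 1.97, 141 and 235 RPKM in SC d27 clones 1 to 4, and Avil the reverse order, at 57.7, 118, 34.0 and 4.03. SC2 d27 was thus like SI d27 in both sets, yet the same clone 6 days after withdrawal held 276 RPKM of Dppa5a and 0.12 RPKM of Avil. After 2 days of withdrawal the SI clones stood at 59.1 to 79.5 over the lower genes, where feeders lay at 94.9 to 96.3, and -0.4 to 8.3 over the higher genes, where feeders lay at -1.4 to -1.0. With such spread between SC d27 clones, SC d27 against SI d27 gave 73 genes of 11513 (0.634%) and SC iPS against SC d27 gave 189 of 11675 (1.62%). The first count was 2609 without SC2 d27, between 0 and 2 without any other library, and 0 with the replicate number as a block. The second, in which the same clones are compared, was 1399 with the clone as a block, 1763 without SC2 iPS, 2515 without SC4 d27 and between 11 and 36 without any other library. Both comparisons share libraries with SC iPS against SI d27.

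**Figure D5:**
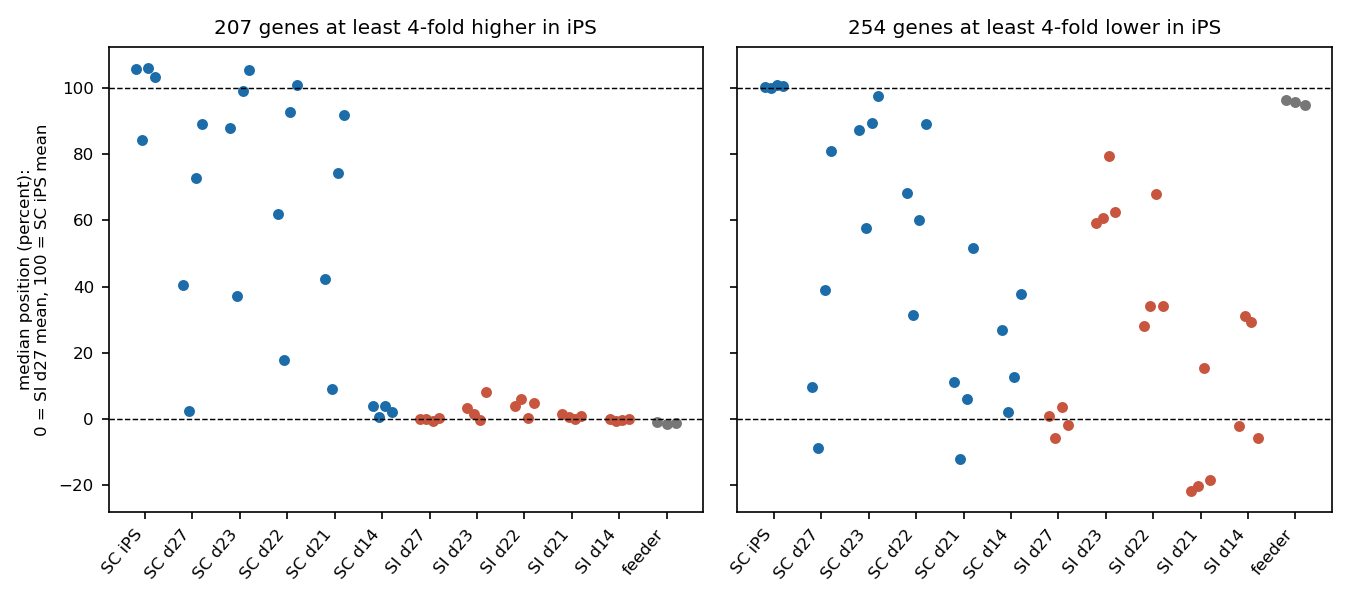
Points are the median position of each library over the 207 genes at least 4-fold higher (left) and the 254 at least 4-fold lower (right) in SC iPS, where 0 percent is the SI d27 mean and 100 percent the SC iPS mean. SC d27 clones (blue) spread from 2.6 to 89.1 on the left and from -8.6 to 80.8 on the right. SI libraries (red) stay near 0 on the left and lie at 59.1 to 79.5 on the right at d23, and feeders (grey) lie at -1.4 to -1.0 and at 94.9 to 96.3.

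The start sites of the 2 sets were searched for short motifs in the 250 bases before the start, on both strands, in the RefSeq windows of GRCm38.p6. Windows were found for 142 of the 207 higher and 178 of the 254 lower genes. The median CpG content, as observed over expected, was 0.542 and 0.517 in these windows against 0.73 for genes tested. That ratio was under 0.4 in 33.3% and 40.6% of the windows against 17.8% for genes tested. The median GC content was 58% and 57.6% against 60%. The part of base composition in the motif shares was not tested. The octamer ATTTGCAT was in 6 of 201 windows of higher genes (2.99%) and in 10 of 224 windows of lower genes (4.46%), against 1.24% of windows of all genes tested and 1.6% of all windows in the table. Zfp42 and Pim2 were among the former and Aldh1a1, Sprr2b and the Ugt1a genes Ugt1a9 and Ugt1a10 among the latter, so the octamer was present on both sides; Pim2, Sprr2b and the Ugt1a genes were named after the search. The joint Oct4 and Sox2 motif was in 2 of 201 windows of higher genes (0.995%), both of Nanog, and in none of the 224 of lower genes, against 0.0688% of windows of genes tested. The AP-1 motif TGANTCA was in 4.98% and 8.48% of the windows of higher and lower genes, against 4.26% of tested genes. These matches describe letters and not binding. The Aldh1a1 window is shown because the gene had one of the largest falls and carries the octamer on the other strand (ATGCAAAT, in capitals, first base 56 before the start; plus strand, chr19:20601718-20601967, the second of 2 windows listed).
Aldh1a1: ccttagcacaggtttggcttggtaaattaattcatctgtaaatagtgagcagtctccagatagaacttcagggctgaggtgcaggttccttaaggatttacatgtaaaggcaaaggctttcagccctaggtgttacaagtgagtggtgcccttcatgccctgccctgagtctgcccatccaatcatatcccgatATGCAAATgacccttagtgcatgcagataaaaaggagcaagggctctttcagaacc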

How the data were processed

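Messenger RNA of 47 libraries was given as 1 deposited table of 22632 genes. Its values were read as RPKM from the values themselves, made by the authors before they deposited the table. CASAVA 1.8 and mm9 are named, with no role, in the submitters' processing notes. The sources used here do not give the aligner, the counting or its use of strand, so overlapping and near-identical genes may share reads. Drug days follow the sample characteristics. The treatment protocol text differs from these on the days with and without the drug. Gene symbols were matched through GENCODE M21 (20750 IDs), and 512 of 521 genes of 36 lists were found.

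Differences were fitted with limma 3.58.1 (R 4.3.3, trended variance) on log2(RPKM + 1), for genes with at least 1 RPKM in at least 4 of the 8 libraries of a comparison, two-sided, with Benjamini-Hochberg adjustment over all genes tested and a threshold of 0.05. The fit was tested on simulated data. The text names a fixed set of core genes, the 10 largest rises and falls without overlap between groups (higher mean 5 RPKM or more), and up to 3 called members of each list with its most expressed uncalled member. The members and lists were chosen with earlier results of these data known. Alternatives were a pseudocount of 0.1, no filter, median ratio scaling, the replicate number as a block, each library left out, and 1 fit over all groups. Same-numbered libraries are the same clone in SI d23 against SI d21 (correlation of deviations 0.339 to 0.549) and in SC iPS against SC d27 (0.198 to 0.400). At the depths read from the values, 1 read in 1 kilobase was worth 0.0111 to 0.0318 RPKM. RefSeq sequences are from GRCm38.p6 and were matched by symbol. A gene that rose after withdrawal is not reported here.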

Additional observations from a re-analysis of the deposited data

Results flagged for a closer look

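A library was listed when its gap to the nearest other library of its group of 4, over the group's whole range, was above Dixon's critical value. Chance gives this in about 1 group in 20, and it was met by 12 of 172 gene and group pairs and 14 of 72 list and group pairs. Most were the SC2 iPS library. It was high for Acta2 (268.53 RPKM, others 64.43 to 73.94), Actg2 (20.22, others 4.05 to 4.97), Ccn4 (12.54, others 2.87 to 3.23), Col5a1 (58.31, others 24.43 to 26.74), B2m (313.13, others 143.92 to 162.92) and Hoxa7 (0.82, others 0.32 to 0.37). It was low for Pou5f1 (239.84 RPKM, others 376.24 to 405.98), Alpl (11.65, others 19.90 to 21.94), Lefty2 (35.14, others 92.93 to 99.06), Cdh1 (28.07, others 59.18 to 60.96) and Epcam (23.57, others 55.85 to 66.57). In SI d27, B2m was low in the SI2 library (245.20 RPKM, others 301.54 to 309.08).

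Among list means of log2(RPKM + 1), the SC2 iPS library was high for fibroblast (5.85), smooth muscle (4.96), TGF-beta and YAP (3.99), EMT (3.11) and AP-1 (2.98) genes. It was low for late pluripotency (4.96), epithelial (1.98), cell cycle (4.82), one-carbon (4.61) and respiratory chain (5.26) genes. The SC1 iPS library was low for imprinted genes (3.63, others 3.78 to 3.81). The SI3 d27 library was low for TGF-beta and YAP (3.73, others 3.95 to 3.98) and smooth muscle genes (4.70, others 4.90 to 4.92) and high for p53 targets (4.54, others 4.48 to 4.49).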

How the results depend on the processing

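Of 1118 alternative values for 86 genes in SC iPS against SI d27, 1082 kept their direction and their side of the threshold, 20 lost the call, 2 gained it and 14 turned direction. The 14 belonged to Alpl, Cdh1, Dnmt1, Epcam, Fn1 and Il6st, none of which passed. With median ratio scaling the difference was 0.01 for Dnmt1, 0.10 for Il6st, 0.09 for Fn1 and 0.02 for Epcam. With 1 library left out it ran from -0.24 to 0.04 for Alpl, from -0.02 to 0.78 for Cdh1, from -0.14 to 0.04 for Il6st, from -0.22 to 0.06 for Fn1 and from -0.55 to 0.23 for Epcam. After withdrawal Hoxa7 ran from -0.06 to 0.65. The count of genes higher was 4050 with no filter, where more genes were tested, and 1919 to 3552 with 1 library left out. With a pseudocount of 0.1, 418 genes were at least 4-fold higher and 465 lower. In SC iPS against SI d27 same-numbered libraries share only a number (correlations -0.114 to 0.114), and the replicate block gave 6041 genes. SC d27 against SI d27 gave 0 genes in limma with no filter (4057 at an unadjusted p under 0.05), 0 with the replicate block (2393), 143 in 1 fit over all groups, and 0 to 2609 with 1 library left out. SC iPS against SC d27 gave 60 with no filter, 1399 with the replicate block, 2131 in 1 fit over all groups, and 11 to 2515 with 1 library left out. The share of genes at least 4-fold lower that fell after withdrawal was 88.1% with the replicate block and 77.8% to 86.1% with 1 withdrawal library left out (78.2% without SI1 d21 or SI2 d21). Other causes were not tested.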

Other observations

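Genes with large differences often lay next to each other in the RefSeq gene order of GRCm38.p6, where 11444 tested genes were placed. Of 199 genes at least 4-fold higher in SC iPS, 25 (12.6%) were next to another such gene, against 3.25% of the other tested genes, in 11 runs. Among the runs were Dppa4, Dppa2 and Morc1, then Triml1, Triml2 and Zfp42, and the pairs Dppa3 and Nanog, Dppa5a and Ooep, and Apoc1 and Apoe. Of 242 genes at least 4-fold lower, 35 (14.5%) were next to another, against 3.86%, in 13 runs. The longest run held 8 Ugt1a genes, which share exons, so that their reads may be shared. Other runs were Hoxa7, Hoxa9 and Hoxa10, the keratins Krt6b, Krt6a and Krt8, and the neurofilament genes Nefl and Nefm. These are descriptions, with no test.

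Cell cycle and smooth muscle genes differed in how they moved after the drug was removed. Of 23 cell cycle genes 22 fell from SI d21 to SI d23 (median -1.85), beside 32% of all genes tested, and all 12 smooth muscle genes tested rose (median 2.63). Of 22 fibroblast genes 18 rose (median 1.59), beside 22.7% of all genes tested that rose.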
